A study of Mus musculus with 12 samples.

Results

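The nuclear pore genes and the nuclear transport receptor genes of the mouse were followed in NIH3T3 cells during polyamine depletion. Every transcript cluster annotated to exactly 1 symbol that begins with Nup, Kpna, Kpnb, Ipo, Xpo or Tnpo and a number was taken, and a gene with several clusters entered with its brightest cluster on average. This gave 42 genes of the 19938 tested, 20 pore genes (Nup) and 22 receptor genes (Kpna, Kpnb, Ipo, Xpo, Tnpo). Each gene stood for 1 cluster, apart from Kpna2 with 3 clusters and Nup210l with 9. Membership was set by gene names, and the choice between clusters of a gene by their mean level over all arrays.

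NIH3T3 is an established line of immortalised mouse fibroblasts. DFMO (difluoromethylornithine) blocks ornithine decarboxylase, the enzyme that makes putrescine, so that the polyamines run down. Cells kept in 1 mM DFMO for 12 h (2 arrays), 24 h (3 arrays), 48 h (2 arrays) or 96 h (2 arrays) were set against untreated cells (3 arrays). All 12 samples were sorted G1 fractions of this line, seeded a day before the drug was added, and total RNA was hybridised to whole-transcript mouse arrays. The untreated cells are the 0 h point of the series. Later untreated cultures were not analysed here, so hours in culture cannot be told apart from hours in the drug. The arrays are labelled biological replicates, with no more said of the cultures, so the p-values measure the spread between these arrays. In bulk RNA, fewer cells of a kind and less RNA per cell cannot be told apart.

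The nuclear pore complex is a ring-shaped channel through the nuclear envelope. A Y-shaped scaffold complex forms its outer rings, an inner ring holds them to the membrane, and proteins rich in phenylalanine and glycine (FG) fill the channel. Importins carry proteins inward and exportins carry them outward, and the small GTPase Ran sets the direction. Pores are built as a nucleus grows in interphase and as the envelope re-forms after mitosis, and cells that stop dividing replace the scaffold slowly.

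The values are log2 array signals, and a difference of 1 is a factor of 2. They compare samples for 1 gene, not 1 gene with another. A gene was called changed where the limma p-value, adjusted by Benjamini-Hochberg over all 19938 genes, was under 0.05. Replicate arrays correlated at 0.994 to 0.998. Untreated replicate 3, 12 h replicate 2 and 24 h replicate 3 deviated from their groups in a shared direction (r = 0.318 and 0.581 of the DFMO arrays with the untreated one), although the arrays of a group of 2 deviate as mirror images. Counts without these 3 arrays are given beside the results. Markers of other tissues give the level of background: the 9 leukocyte genes measured, such as Ptprc, lay between 3.22 and 4.22 on all arrays. The pore genes Nup210, Nup210l and Nup62cl and the receptor gene Kpna7 lay at that background, which left 17 pore genes and 21 receptor genes with a mean of at least 6. Fibroblast markers were present, with Vim at 12.02 and 12.06 at 96 h, against 12.28 to 12.34 in untreated cells. They did not all hold steady. Thy1 was lower, with 5.95 and 5.99 at 96 h, against 8.26, 8.25 and 8.44 in untreated cells. Fn1 was higher, with 12.38 and 12.40 at 96 h, against 11.69, 11.72 and 11.64 in untreated cells. Of the 9 epithelial and endothelial markers measured, Krt14 stood above background in untreated cells (8.56 to 9.17), while the others lay near it. Odc1, which encodes the drug's target, was lower at 96 h (-0.68 ± 0.16, limma SE, adjusted p = 0.0133). DFMO acts on the enzyme, so this level does not test the treatment.

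Promoter sequences are shown for the pore gene and the receptor genes on which the later contrasts turn: Nup107 and Xpo1, which fell most in their classes, and the importin alpha genes Kpna2 and Kpna4, which moved in opposite directions. Each runs from 250 bases before to 50 bases after the transcription start, 5′ to 3′ along the gene, in RefSeq's GRCm38.p6 table. Capitals mark matches, on either strand, to 4 short motifs: the E2F site (as TTTCGCG, in the variant TTTGGCG, in the variant TTTCCCG or in the variant TTTGCCG), the cell cycle homology region CHR as TTTGAA or else TTCGAA, the box spelled CCAAT, and the core of NRF1 sites spelled GCATGCG. Nup107 lies at chr10:117792656-117792955, minus strand, Xpo1 at chr11:23255791-23256090, plus strand, Kpna2 at chr11:106999476-106999775, minus strand, and Kpna4 at chr3:69127043-69127342, minus strand.
Nup107: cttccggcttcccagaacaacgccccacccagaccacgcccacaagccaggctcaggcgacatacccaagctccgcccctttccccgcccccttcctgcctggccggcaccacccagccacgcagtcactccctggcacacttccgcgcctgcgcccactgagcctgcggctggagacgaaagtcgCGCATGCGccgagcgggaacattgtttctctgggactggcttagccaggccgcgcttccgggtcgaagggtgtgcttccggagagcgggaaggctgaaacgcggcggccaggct
Xpo1: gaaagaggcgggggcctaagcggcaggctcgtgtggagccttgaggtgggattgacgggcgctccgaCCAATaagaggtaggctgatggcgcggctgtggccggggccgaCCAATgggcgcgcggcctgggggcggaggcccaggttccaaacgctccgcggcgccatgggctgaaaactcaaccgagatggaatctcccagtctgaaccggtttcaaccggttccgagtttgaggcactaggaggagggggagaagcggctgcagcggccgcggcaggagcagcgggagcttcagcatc
Kpna2: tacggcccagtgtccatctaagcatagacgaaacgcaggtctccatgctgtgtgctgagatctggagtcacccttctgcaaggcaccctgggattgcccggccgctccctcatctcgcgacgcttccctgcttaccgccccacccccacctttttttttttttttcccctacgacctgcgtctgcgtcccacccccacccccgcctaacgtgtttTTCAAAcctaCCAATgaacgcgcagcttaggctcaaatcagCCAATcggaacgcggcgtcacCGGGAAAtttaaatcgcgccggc
Kpna4: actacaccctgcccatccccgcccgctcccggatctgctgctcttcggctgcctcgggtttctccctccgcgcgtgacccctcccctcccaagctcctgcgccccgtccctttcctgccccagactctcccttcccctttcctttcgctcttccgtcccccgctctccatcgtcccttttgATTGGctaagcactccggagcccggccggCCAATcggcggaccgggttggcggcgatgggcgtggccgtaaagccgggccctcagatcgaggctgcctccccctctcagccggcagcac
The run of capitals in Nup107 is 2 overlapping NRF1 matches, one per strand. Xpo1 and Kpna4 each held 2 CCAAT boxes. Kpna2 held 2 CCAAT boxes, 1 CHR and 1 E2F match. No other matches in these windows overlapped.

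RefSeq promoters were listed for 34 of the 42 genes, 17 in each class. Among the 17 pore genes, 3 held an E2F match, 2 a CHR, 9 a CCAAT box and 3 an NRF1 match. Among the 17 receptor genes, 2 held E2F, 6 CHR, 11 CCAAT and 1 NRF1. Over all 27025 genes with a listed promoter the shares were 7.65% for E2F, 21.7% for CHR, 41.1% for CCAAT and 4.01% for NRF1. A CCAAT box was present in 12 of the 22 members called lower at 96 h that had a promoter and in 7 of the 11 not called. A match in such a window describes the sequence, and nothing follows from it about binding.

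No gene of either class was called in the first day. At 12 h and at 24 h, 0 of 42 genes were called by limma, as were 0 of all genes (0.0%). At an unadjusted p under 0.05, 1 pore and 2 receptor genes of 741 genes in all passed at 12 h, and 2 and 2 of 1579 at 24 h. The falls were seen from 48 h. At 48 h, 7 of 20 pore genes and 3 of 22 receptor genes were called lower and 0 were called higher, where 3.17% of all genes were called lower and 2.65% higher. At 96 h, 14 of 20 pore genes and 12 of 22 receptor genes were called lower, with 10.1% of all genes lower. In the other direction 0 pore genes and 1 receptor gene were called higher at 96 h, with 11.8% of all genes higher.

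The median log2 change at 48 h was -0.25 over the pore genes, -0.16 over the receptor genes and -0.02 over all genes. At 96 h it was -0.57 over the pore genes (range -1.42 to 0.00) and -0.30 over the receptor genes (range -1.06 to 0.43), with 0.00 over all genes. Per array, the median difference of the pore genes from the untreated mean was -0.51 and -0.69 at 96 h, against -0.06, 0.00 and 0.04 in untreated cells. That of the receptor genes was -0.32 and -0.26 at 96 h, against -0.04, 0.01 and 0.01 in untreated cells. At 48 h the 2 arrays gave -0.20 and -0.29 for pore genes and -0.14 on both arrays for receptor genes. Counting by arrays alone, both DFMO arrays of a gene lay below every untreated array for 13 pore and 10 receptor genes at 48 h (25.2% of all genes), and for 16 and 14 at 96 h (21.4%). They lay above every untreated array for 2 receptor genes at 48 h (15.7%) and 5 at 96 h (23.0%), and for 0 pore genes at either time. The pore median was the lower one on each 48 h and 96 h array, narrowly so on 48 h replicate 1 (-0.20 against -0.14). It was also lower on 24 h replicate 2 (-0.07 against -0.06) and replicate 3 (-0.10 against -0.04). On 24 h replicate 1 it was the higher one (0.03 against -0.02), as on both 12 h arrays (-0.08 against -0.10 and 0.01 against -0.04). With the dim genes left aside, 14 of 17 pore genes (median -0.73) and 12 of 21 receptor genes (median -0.30) were lower at 96 h, beside 1600 of 7063 genes of that brightness (median 0.01). At 48 h these counts were 7 of 17, 3 of 21 and 497 of 7063. Dim genes are seldom called, so the shares over all genes given throughout are smaller than those among bright genes.

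**Figure D1:**
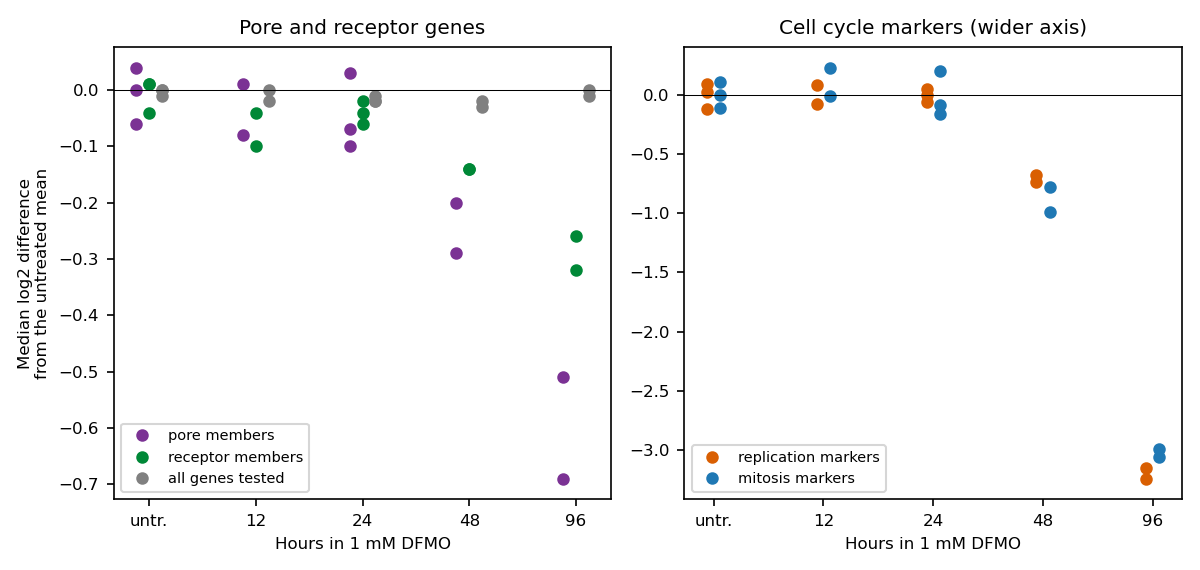
Median log2 difference from the untreated mean on each array (points), for the 20 pore genes, the 22 receptor genes and all genes on the left, and for replication and mitosis markers on the right, against hours in 1 mM DFMO. The pore points reach -0.51 and -0.69 at 96 h and the receptor points -0.32 and -0.26, while the marker points on their wider axis lie near -3.

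The 48 h counts were the less firm, and counts over all genes moved too. At 48 h, 632 of all genes were called lower, 389 without untreated replicate 2 and 453 without untreated replicate 3. At 96 h these counts were 2012, 1784 and 1753. Without either 48 h array, the 48 h count over all genes fell further than without any 1 untreated array. So did the 96 h count without either 96 h array. Both counts also fell without the 3 arrays that deviated together. Without 48 h replicate 2 the pore count was 1, without 48 h replicate 1 it was 3, and without untreated replicate 2 or 3 it was 4. The receptor count was 0 without either 48 h array and 1 without untreated replicate 2 or 3, or without all 3 arrays that deviated together. Without those 3 the pore count at 48 h was 5, and at 96 h 13 pore and 10 receptor genes were called. At 96 h the pore count stayed between 11 and 16 with any 1 array left out, and the receptor count between 7 (without 96 h replicate 1) and 12.

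Cell cycle markers moved with these genes although all samples were G1 sorts. Beside the marker counts, 10.1% of all genes were called lower and 11.8% higher at 96 h, and 3.17% and 2.65% at 48 h. All 10 replication markers (Mcm, Pcna, Rrm2, Tyms and Cdc6 genes) were lower at 96 h, median -3.20, and 9 of 10 at 48 h, median -0.73. Their summed level was 10.03 to 10.09 log2 at 96 h, against 13.06 to 13.24 in untreated cells. All 9 mitosis markers measured were lower at 96 h, median -2.97, and 7 of 9 at 48 h. Their summed level was 8.12 to 8.15 at 96 h, against 11.44 to 11.61 in untreated cells. Their part in the changes of the pore and receptor genes was not tested. Of the leukocyte markers 0 of 9 were called at 96 h, with summed levels of 6.82 to 6.83 at 96 h and 6.78 to 6.86 in untreated cells. Fibroblast markers gave 5 lower and 1 higher of 9, with summed levels of 14.22 to 14.32 at 96 h and 14.37 to 14.41 in untreated cells. Of the epithelial and endothelial markers, Krt14 was called lower at 96 h, and Cdh1 and Tek were called higher. Cdh1 rose from near background to 4.53 and 4.71. Tek, with 3.69 and 3.72, stayed within the background range, where a difference cannot be read as a change of the transcript.

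**Figure D2:**
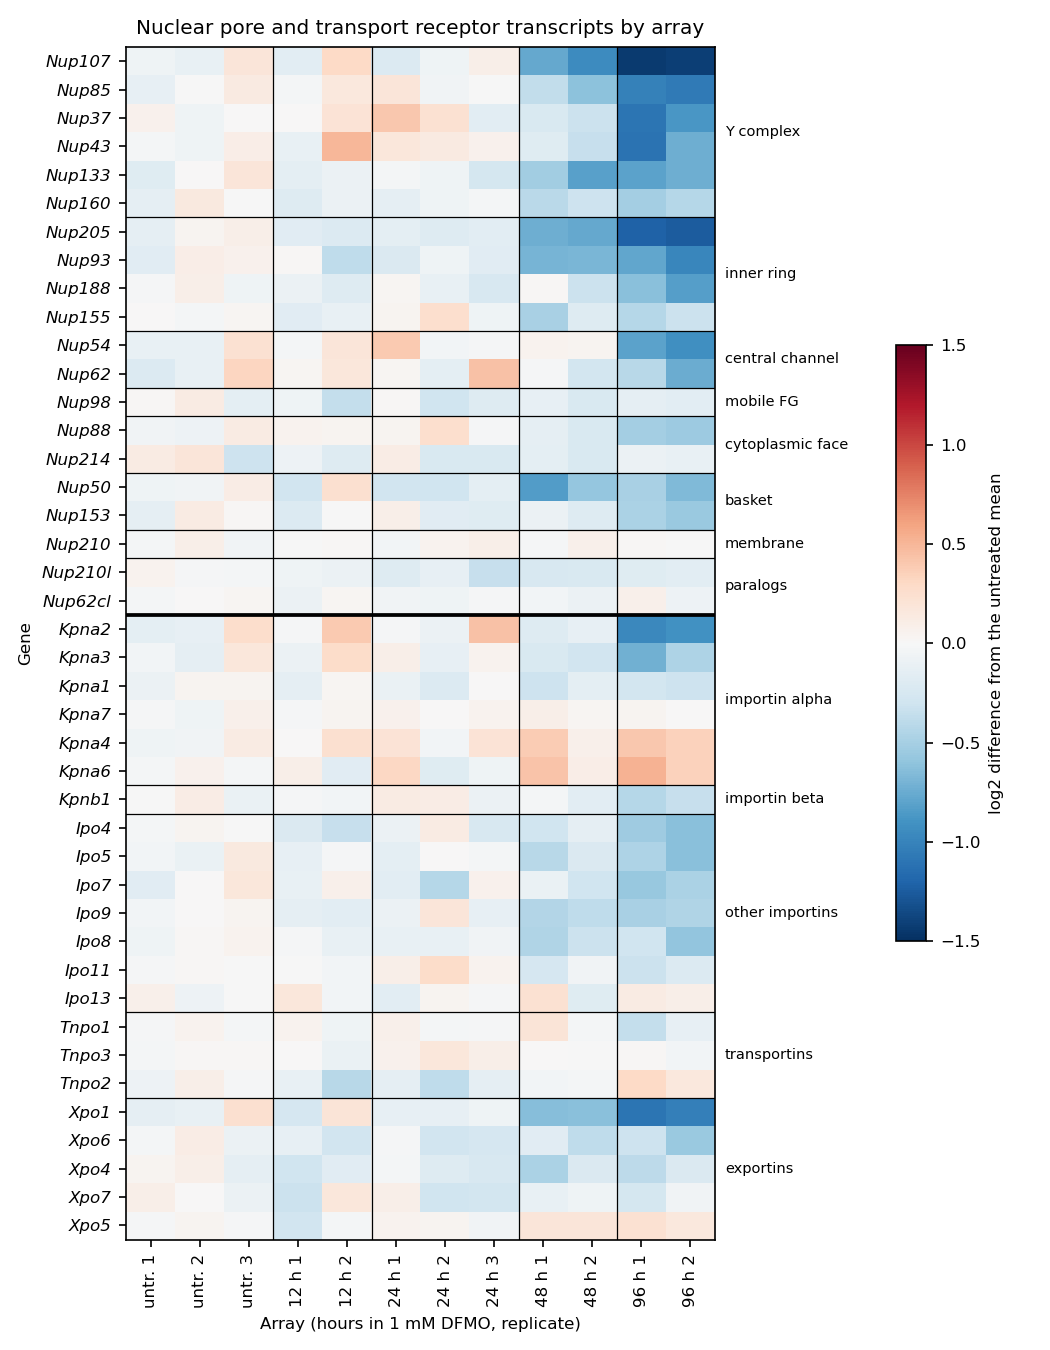
Log2 difference of each of the 42 genes (rows, by role, pore genes above the thick line) from its untreated mean on each of the 12 arrays (columns, by hours in DFMO and replicate). The Y complex and inner ring rows are blue at 48 h and 96 h, apart from Nup188 on 48 h replicate 1. There it had 8.20, against 8.16, 8.27 and 8.11 in untreated cells. The Kpna4, Kpna6 and Xpo5 rows are among those that are red at 48 h and 96 h.

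Of the Y complex, all 6 genes with Nup names that were listed for it were lower at 96 h (10.1% of all genes), by -0.47 to -1.42. At 48 h 4 of them were lower (Nup107, Nup133, Nup85 and Nup160), with 3.17% of all genes. Nup98 was listed apart, as a mobile FG gene, and was not called at either time. Of the 3 measured members of the complex with other names, Seh1l was lower at 96 h. Sec13 (-0.38, adjusted p = 0.291) and Ahctf1 (-0.10, adjusted p = 0.63) were not called there, and none of these 3 was called at 48 h. This scaffold recruits the other parts of the pore to chromatin and membrane, and sits at kinetochores in mitosis. Nup107, its organising member, had 6.83 and 6.86 at 96 h, against 8.20, 8.15 and 8.45 in untreated cells. It had 8.11 and 8.56 at 12 h, 8.06, 8.20 and 8.36 at 24 h, and 7.50 and 7.32 at 48 h. The 12 h and 24 h groups overlapped the untreated one, and the 48 h and 96 h arrays lay below all untreated arrays. The change was -1.42 ± 0.14 at 96 h, 2.68-fold lower (adjusted p = 9.36e-05), the largest fall among the 42 genes. At 48 h it was -0.86 ± 0.14 (adjusted p = 0.00983), which lost its call without 48 h replicate 2 (-0.76).

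Nup85, on the short arm of the Y, had 7.31 and 7.26 at 96 h, against 8.20, 8.31 and 8.45 in untreated cells. Its arrays had 8.29 and 8.48 at 12 h, 8.50, 8.27 and 8.31 at 24 h, and 7.95 and 7.71 at 48 h, so both later groups lay below the untreated range. It fell 2.04-fold by 96 h (-1.03 ± 0.11, adjusted p = 0.000109). The other 4 Nup genes listed for the complex fell by 96 h as well. Nup37 and Nup43, propeller proteins of the animal Y complex, changed by -0.98 and -0.92 at 96 h (adjusted p = 0.001 and 0.00301) with no call at 48 h (-0.27 and -0.26). Nup133 and Nup160, which form the stem and an arm, were called at both times. Nup133 changed by -0.67 at 48 h and -0.77 at 96 h, and Nup160 by -0.36 and -0.47. At 48 h the Nup85 and Nup160 calls each ended when either 48 h array or untreated replicate 2 or 3 was left out (Nup85 between -0.61 and -0.37, Nup160 between -0.40 and -0.29), and the Nup160 call also without either 96 h array (-0.36). The Nup133 call ended without 48 h replicate 2 (-0.52).

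Of the inner ring, 4 of 4 genes in the set were lower at 96 h (10.1% of all genes) and 2 of 4 at 48 h (3.17%). Nup205, a large scaffold protein, had 8.50 and 8.46 at 96 h, against 9.58, 9.76 and 9.80 in untreated cells. It had 9.54 and 9.51 at 12 h, 9.57, 9.52 and 9.55 at 24 h, and 8.98 and 8.94 at 48 h. The arrays of each DFMO time lay below all untreated arrays, narrowly so in the first day, when the change was not called (-0.19 at 12 h and -0.17 at 24 h, adjusted p = 0.989 and 0.561). It fell 2.35-fold by 96 h (-1.23 ± 0.06, adjusted p = 1.29e-06) and changed by -0.75 ± 0.06 at 48 h (adjusted p = 0.000672). Of the 10 genes called at 48 h, Nup205 alone kept its call with each of the 12 arrays left out and in each other setting tried.

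Nup93, which ties the inner ring together, had 8.40 and 8.20 at 96 h, against 9.01, 9.28 and 9.24 in untreated cells. Its values were 9.20 and 8.80 at 12 h, 8.96, 9.11 and 9.01 at 24 h, and 8.48 and 8.49 at 48 h. Both arrays at 48 h and at 96 h lay below the untreated range, as did 12 h replicate 2 and 24 h replicate 1, and the 12 h and 24 h groups overlapped it. The change was -0.88 ± 0.12 at 96 h (adjusted p = 0.000704) and -0.69 ± 0.12 at 48 h (adjusted p = 0.0126), the 48 h call ending without either 48 h array (-0.68 and -0.70). Nup188, the paralog of Nup205, changed by -0.73 ± 0.12 at 96 h (adjusted p = 0.00141) and -0.15 at 48 h with no call. Nup155, which contacts the membrane, changed by -0.38 ± 0.10 at 96 h (adjusted p = 0.0254), and this call ended when either 96 h array or any 1 untreated array was left out (-0.43 to -0.32).

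Of the central channel genes, Nup54 was lower at 96 h and Nup62 was not called, and neither was called at 48 h. Nupl1, which encodes their channel partner and falls outside the naming rule, had 7.88 and 7.87 at 96 h, against 8.26, 8.29 and 8.44 in untreated cells (-0.45 ± 0.13, adjusted p = 0.038), and was not called at 48 h (-0.27). Nup54, an FG protein that binds Nup62, had 7.39 and 7.28 at 96 h, against 8.09, 8.08 and 8.42 in untreated cells. It had 8.17 and 8.38 at 12 h, 8.59, 8.16 and 8.18 at 24 h, and 8.25 and 8.24 at 48 h. Up to 48 h its groups overlapped the untreated one, so the fall of -0.86 ± 0.15 at 96 h (adjusted p = 0.00209) came late. Nup62, the founding FG protein of the channel, had 8.21 and 7.89 at 96 h, against 8.42, 8.52 and 8.95 in untreated cells. Its earlier arrays had 8.66 and 8.80 at 12 h, 8.66, 8.48 and 9.07 at 24 h, and 8.61 and 8.35 at 48 h. The 96 h arrays lay below the untreated ones, but the spread was wide and -0.58 ± 0.20 was not called (adjusted p = 0.0727).

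Nup98, a mobile FG protein that also binds chromatin, had 9.02 and 9.00 at 96 h, against 9.17, 9.28 and 9.01 in untreated cells. It had 9.09 and 8.80 at 12 h, 9.17, 8.85 and 8.96 at 24 h, and 9.03 and 8.93 at 48 h. The groups overlapped at every time, with a change of -0.15 at 96 h and a 95% interval of -0.41 to 0.11, which excludes a fall of the size seen in Nup107.

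On the cytoplasmic face, where messenger RNA leaves the pore, Nup88 fell and its partner Nup214 was not called. Nup88 had 8.32 and 8.29 at 96 h, against 8.78, 8.76 and 8.96 in untreated cells. It had 8.89 and 8.88 at 12 h, 8.87, 9.09 and 8.81 at 24 h, and 8.70 and 8.61 at 48 h. Its change was -0.18 at 48 h, not called, and -0.53 ± 0.09 at 96 h (adjusted p = 0.00211). Nup214 had 7.63 and 7.61 at 96 h, against 7.84, 7.90 and 7.41 in untreated cells. Its arrays had 7.64 and 7.52 at 12 h, 7.83, 7.49 and 7.49 at 24 h, and 7.57 and 7.49 at 48 h, all inside the untreated range. The 96 h change was -0.10 (95% interval -0.43 to 0.23).

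Both basket genes with Nup names were lower at 96 h (10.1% of all genes). Nup50, a mobile basket protein that helps to free cargo from importin alpha, had 8.30 and 8.12 at 96 h, against 8.72, 8.73 and 8.90 in untreated cells. It had 8.50 and 9.02 at 12 h, 8.50, 8.48 and 8.64 at 24 h, and 7.94 and 8.20 at 48 h. Its change was -0.71 ± 0.15 at 48 h (adjusted p = 0.022) and -0.57 ± 0.15 at 96 h (adjusted p = 0.0187), so it was already down at 48 h. The 48 h call ended without either 48 h array or any 1 untreated array (-0.84 to -0.58), and the 96 h call without either 96 h array or untreated replicate 3 (-0.66 to -0.49). Nup153, which anchors the basket, had 9.00 and 8.92 at 96 h, against 9.34, 9.60 and 9.49 in untreated cells. It had 9.27 and 9.47 at 12 h, 9.57, 9.31 and 9.29 at 24 h, and 9.39 and 9.28 at 48 h. It changed by -0.52 ± 0.11 at 96 h (adjusted p = 0.00625), which lost its call without 96 h replicate 2 (-0.48). The change of -0.14 at 48 h was not called. Nor was the limma step of -0.38 from 48 h to 96 h (adjusted p = 0.086), so the time of the fall is not settled.

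The remaining 3 pore genes were at background and gave no call. Nup210, a membrane-spanning pore protein tied to muscle and nerve differentiation, had 3.63 and 3.61 at 96 h, against 3.58, 3.70 and 3.56 in untreated cells, and between 3.57 and 3.70 at the other times. Nup62cl, a relative of Nup62, had 3.76 and 3.61 at 96 h, against 3.65, 3.69 and 3.71 in untreated cells, and 3.60 to 3.71 at the other times. Nup210l, a relative of Nup210, had 4.02 and 4.05 at 96 h, against 4.26, 4.18 and 4.17 in untreated cells, and between 3.86 and 4.14 at the other times. At this level a difference cannot be read as a change of the transcript. When clusters were tested one by one, 2 of the 9 Nup210l clusters were called lower at 96 h.

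**Figure D3:**
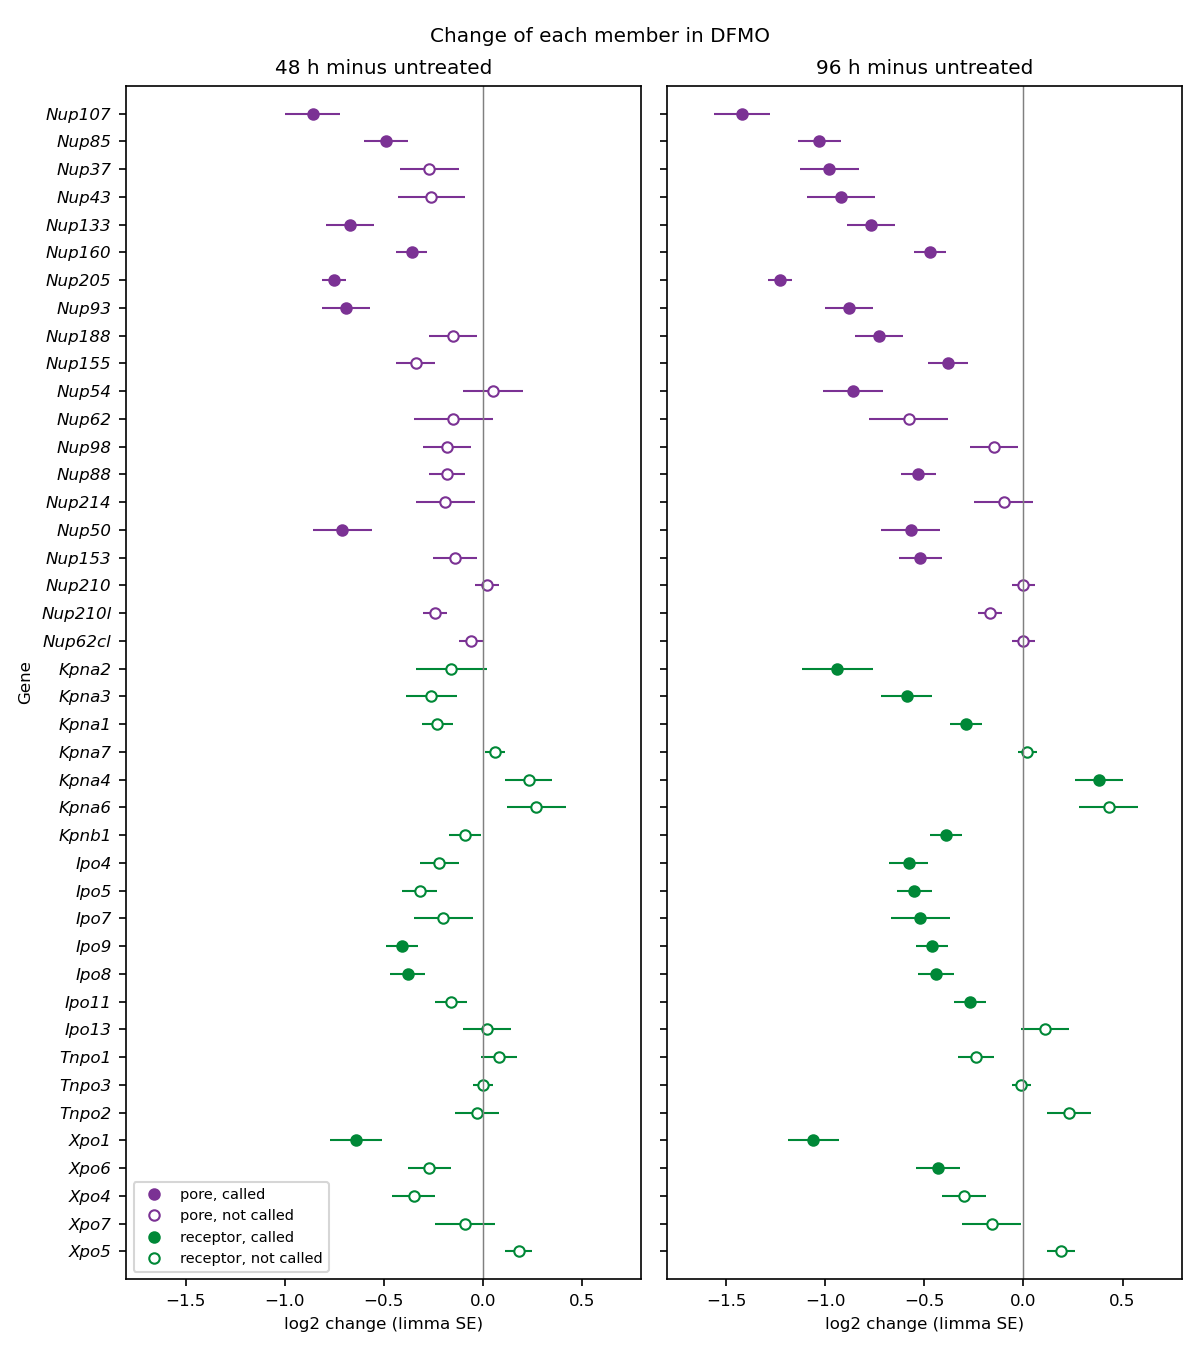
Log2 change of each gene in DFMO against untreated cells at 48 h (left) and 96 h (right), with limma standard errors as bars. Purple points are pore genes, green points receptor genes, and filled points those called. Of the filled points at 96 h, Kpna4 is the 1 to the right of 0.

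The importin alpha genes, whose products bind the classical nuclear localisation signal and join cargo to importin beta, went different ways. At 96 h, 3 of 6 were lower (Kpna2, Kpna3, Kpna1), with 10.1% of all genes lower, and 1 was higher (Kpna4), with 11.8% of all genes higher. At 48 h 0 of 6 were called. Kpna2, the form known for high levels in dividing cells, had 8.93 and 8.98 at 96 h, against 9.75, 9.77 and 10.16 in untreated cells. It had 9.88 and 10.29 at 12 h, 9.87, 9.81 and 10.33 at 24 h, and 9.70 and 9.77 at 48 h. The groups overlapped the untreated one until 48 h, and the 96 h arrays lay well below it. The change was -0.94 ± 0.18, 1.92-fold lower (adjusted p = 0.00433). When clusters were tested one by one, the 3 Kpna2 clusters gave -0.82, -0.88 and -0.94 at 96 h and were all called. Clusters of 1 gene may share sequence, so these values are not independent.

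Kpna3 had 8.57 and 8.82 at 96 h, against 9.25, 9.15 and 9.46 in untreated cells. It had 9.20 and 9.56 at 12 h, 9.37, 9.16 and 9.34 at 24 h, and 9.06 and 9.00 at 48 h. Its close relative Kpna4 had 8.61 and 8.54 at 96 h, against 8.13, 8.15 and 8.32 in untreated cells. The pair thus moved apart: Kpna3 changed by -0.59 ± 0.13 (adjusted p = 0.00852) and Kpna4 by 0.38 ± 0.12 (adjusted p = 0.0459), with both 96 h arrays of Kpna3 below and both of Kpna4 above every untreated array. Kpna4 had 8.21 and 8.44 at 12 h, 8.41, 8.16 and 8.40 at 24 h, and 8.58 and 8.28 at 48 h. The Kpna3 call ended without 96 h replicate 1 (-0.47). The Kpna4 call was the less firm, and ended without either 96 h array, untreated replicate 1 or 2, or 24 h replicate 1 or 3, with values of 0.34 to 0.41.

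Kpna1 had 8.35 and 8.31 at 96 h, against 8.53, 8.67 and 8.67 in untreated cells. It had 8.49 and 8.65 at 12 h, 8.52, 8.42 and 8.63 at 24 h, and 8.31 and 8.48 at 48 h. The change of -0.29 ± 0.08 (adjusted p = 0.0328) was no longer called without either 96 h array or untreated replicate 2 or 3 (-0.31 to -0.27). Kpna6, its close relative, had both 96 h arrays above the untreated ones, 9.63 and 9.45 at 96 h against 9.08, 9.17 and 9.08 in untreated cells. Its change of 0.43 ± 0.15 was not called (adjusted p = 0.0798). Kpna7, known from oocytes and early embryos, lay at background (3.31 and 3.27 at 96 h, against 3.25, 3.20 and 3.34 in untreated cells).

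Kpnb1, importin beta, the carrier that takes importin alpha and its cargo through the channel, had 10.95 and 11.04 at 96 h, against 11.38, 11.49 and 11.28 in untreated cells. It had 11.37 and 11.34 at 12 h, 11.51, 11.49 and 11.29 at 24 h, and 11.35 and 11.23 at 48 h. The 96 h arrays lay below all others. The fall was -0.39 ± 0.08, 1.31-fold (adjusted p = 0.00778), and its call ended without 96 h replicate 1 (-0.35, adjusted p = 0.07).

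**Figure D4:**
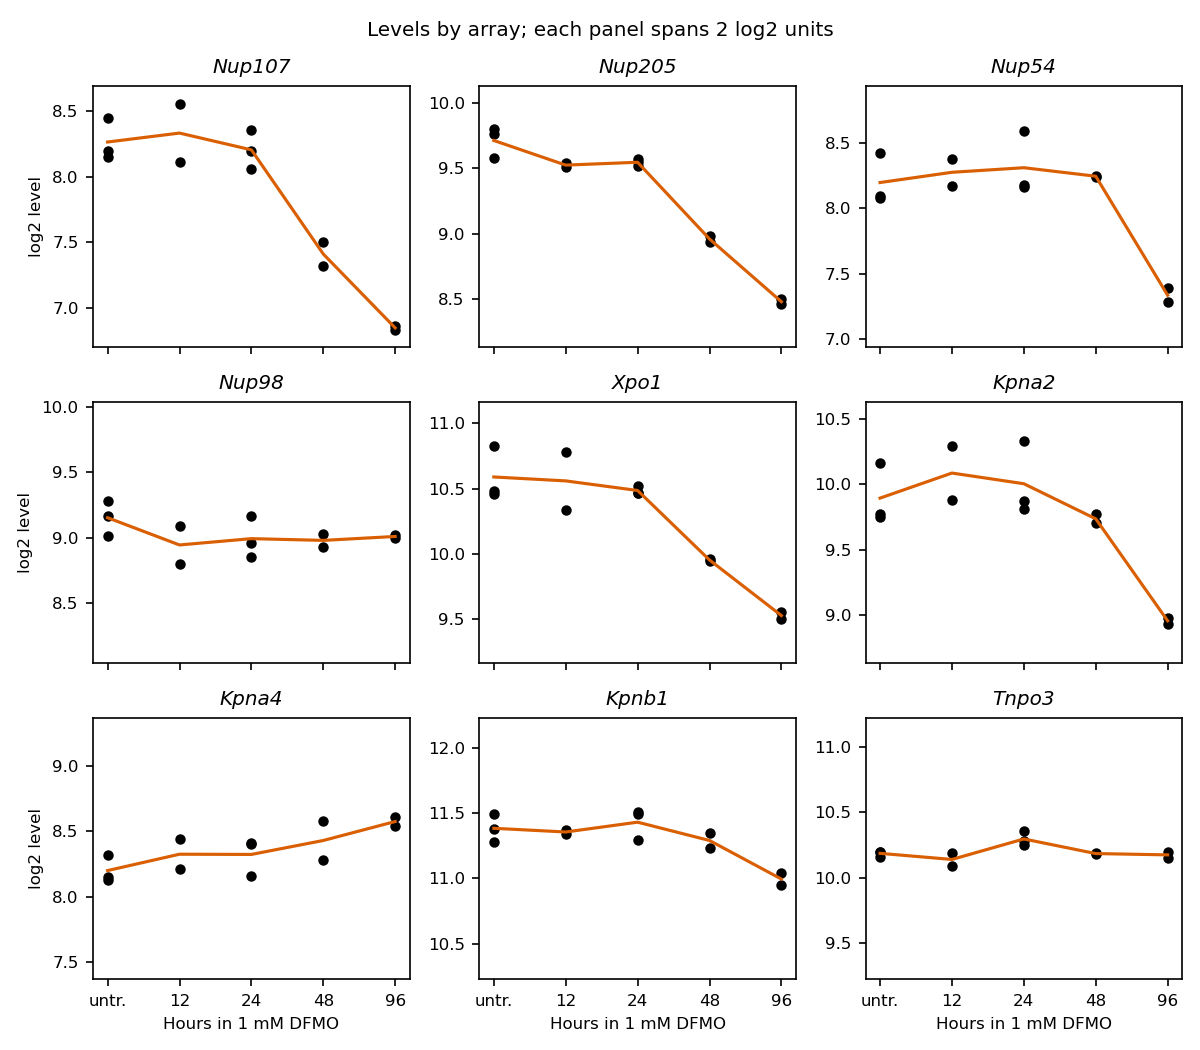
Log2 level on each array (points) and group means (line) against hours in 1 mM DFMO for 9 genes, with each panel spanning 2 log2 units. Nup107, Nup205 and Xpo1 are lower at 48 h and lower again at 96 h, and of these the second step was called for Nup205 alone. Nup54 and Kpna2 are lower at 96 h, Kpna4 is higher, and Nup98 and Tnpo3 lie at the edge of the untreated range or inside it at 96 h.

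Of the 7 Ipo genes, importins that bind cargo directly, 6 were lower at 96 h (10.1% of all genes). At 48 h 2 were lower, Ipo8 and Ipo9 (3.17% of all genes). Ipo9, a carrier of histones, had 9.65 and 9.68 at 96 h, against 10.09, 10.14 and 10.17 in untreated cells. It had 10.00 and 9.98 at 12 h, 10.04, 10.31 and 10.01 at 24 h, and 9.69 and 9.75 at 48 h. The arrays of the later times sat together, well below the untreated ones, at -0.41 ± 0.08 at 48 h (adjusted p = 0.0204) and -0.46 ± 0.08 at 96 h (adjusted p = 0.00283). Ipo5, which imports histones and ribosomal proteins, had 10.00 and 9.84 at 96 h, against 10.42, 10.37 and 10.61 in untreated cells. It had 10.34 and 10.45 at 12 h, 10.32, 10.47 and 10.44 at 24 h, and 10.05 and 10.25 at 48 h. It fell by 0.55 on the log2 scale at 96 h (adjusted p = 0.00238).

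Of the other Ipo genes, 4 fell at 96 h by 0.27 to 0.58 on the log2 scale, and Ipo13 was not called. Ipo4, a histone carrier, changed by -0.58 ± 0.10 (adjusted p = 0.00257), and Ipo8, a carrier of argonaute and SMAD proteins, by -0.44 ± 0.09 (adjusted p = 0.00449). Ipo7, a carrier of ribosomal proteins, changed by -0.52 ± 0.15 (adjusted p = 0.0295), and Ipo11 by -0.27 ± 0.08 (adjusted p = 0.0411). The Ipo7 call ended without either 96 h array or untreated replicate 2 or 3 (-0.57 to -0.44). That of Ipo11 ended without any 1 untreated, 12 h or 96 h array or without 24 h replicate 1 (-0.33 to -0.20). At 48 h the Ipo8 call (-0.38) ended without any 1 untreated or 48 h array (-0.45 to -0.31), and the Ipo9 call without either 48 h array or untreated replicate 2 or 3 (-0.44 to -0.39). Ipo13, which works in both directions, had 8.83 and 8.79 at 96 h, against 8.78, 8.63 and 8.70 in untreated cells (0.11, 95% interval -0.16 to 0.37).

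The transportins gave no call at any time. Tnpo1, which imports RNA-binding proteins, had 9.55 and 9.79 at 96 h, against 9.89, 9.96 and 9.88 in untreated cells. It had 9.96 and 9.84 at 12 h, 9.99, 9.88 and 9.89 at 24 h, and 10.10 and 9.88 at 48 h. The 96 h arrays lay below the untreated ones by -0.24 ± 0.09 (adjusted p = 0.0863). Tnpo2, its paralog, had 8.88 and 8.74 at 96 h, against 8.51, 8.68 and 8.57 in untreated cells. It had 8.48 and 8.17 at 12 h, 8.45, 8.20 and 8.45 at 24 h, and 8.55 and 8.56 at 48 h, so it lay above the untreated arrays at 96 h and below them in the first day (0.23 ± 0.11 at 96 h, adjusted p = 0.198). Tnpo3, a carrier of SR splicing factors, had 10.20 and 10.15 at 96 h, against 10.16, 10.20 and 10.20 in untreated cells. Its change was -0.01, with a 95% interval of -0.13 to 0.11 that leaves out a fall of the size seen in Kpnb1.

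Of the 5 Xpo genes, which encode exportins, 2 were lower at 96 h (10.1% of all genes) and 1 at 48 h (3.17%). Xpo1, the general exporter of proteins with a leucine-rich export signal, had 9.50 and 9.56 at 96 h, against 10.46, 10.48 and 10.83 in untreated cells. It had 10.34 and 10.78 at 12 h, 10.47, 10.47 and 10.52 at 24 h, and 9.95 and 9.96 at 48 h. Its arrays lay below the untreated range at 48 h and lower again at 96 h, although the step from 48 h to 96 h was not called. The change was -1.06 ± 0.13, 2.08-fold lower, at 96 h (adjusted p = 0.000392) and -0.64 ± 0.13 at 48 h (adjusted p = 0.0244), the 48 h call ending without either 48 h array (-0.63 and -0.64). Its fall at 96 h was the largest among the 22 receptor genes.

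Xpo5, which exports microRNA precursors, had 9.36 and 9.29 at 96 h, against 9.12, 9.17 and 9.11 in untreated cells. It had 8.85 and 9.10 at 12 h, 9.19, 9.17 and 9.08 at 24 h, and 9.32 and 9.32 at 48 h. Its later arrays all lay above the untreated ones, but 0.19 ± 0.07 was not called at 96 h (adjusted p = 0.104). Xpo6, the exporter of actin, fell by 0.43 on the log2 scale at 96 h (adjusted p = 0.0219), which lost its call without 96 h replicate 2 (-0.31) or untreated replicate 2 (-0.38). Xpo4, whose cargo includes a translation factor modified with hypusine, a residue made from spermidine, had 8.03 and 8.21 at 96 h, against 8.47, 8.52 and 8.29 in untreated cells (-0.30 ± 0.11, adjusted p = 0.0769). Xpo7, an exporter with many cargoes, was not called (-0.16, 95% interval -0.51 to 0.18).

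The steps between DFMO times were tested directly. Between 24 h and 48 h, 3 pore genes (Nup107, Nup205, Nup85) and 1 receptor gene (Ipo9) were called lower at the later time, where 1.14% of all genes were lower. Between 48 h and 96 h, 5 pore genes (Nup54, Nup37, Nup188, Nup85, Nup205) and 1 receptor gene (Kpna2) were called lower, where 4.29% of all genes were lower. Neither step had a gene of either class called higher (0.527% and 4.35% of all genes). Nup205 and Nup85 were thus called in both steps. The Nup205 calls held with each array left out. The Nup85 calls were less firm, the early one ending in 9 of 12 omissions (-0.66 to -0.42) and the late one in 3 (-0.56 to -0.42). Nup54 had 7.39 and 7.28 at 96 h, against 8.25 and 8.24 at 48 h, a step of -0.92 ± 0.16 (adjusted p = 0.00719). Kpna2 had 8.93 and 8.98 at 96 h, against 9.70 and 9.77 at 48 h, a step of -0.78 ± 0.20 (adjusted p = 0.0397). The early pore count was 1 without either 48 h array, untreated replicate 1 or 24 h replicate 2, and the Ipo9 step was lost in 10 of 12 omissions (-0.44 to -0.38). The late pore count was 1 without 48 h replicate 1 or 96 h replicate 2 and 3 without 96 h replicate 1. Without the 3 arrays that deviated together, 2 pore genes (Nup107, Nup205) and 1 receptor gene were called in the early step. That receptor gene was Xpo1 (-0.52), and the Ipo9 step (-0.46) was not called. Over all genes, fewer were called lower in the early step without these 3 arrays, and more in the late step, than with all 12 arrays. In the late step 8 pore and 3 receptor genes were called, with Nup107, Nup43, Nup88, Kpnb1 and Xpo1 added to the 6 named above. The late receptor count was 2 without 24 h replicate 2 (Ipo4 added) and 3 without 24 h replicate 3 (Ipo4 and Kpnb1 added), and the Kpna2 step ended without any 1 of the 48 h, the 96 h or untreated replicates 1 and 2 (-0.82 to -0.75).

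Genes of the same machinery whose names fall outside the rule were counted from fixed lists. The shares beside them are over all genes, dim ones included. Of the 7063 genes with a mean of at least 6, 1600 were lower and 1554 higher at 96 h, and 497 and 371 at 48 h. Of 11 other pore genes measured, 3 were lower (10.1% of all genes) and 1 was higher (11.8%) at 96 h, with 2 lower (3.17%) and 1 higher (2.65%) at 48 h. The 3 lower ones were Nupl1, given above, Ndc1 and Seh1l. Ndc1, a membrane-spanning protein needed to insert pores, had 7.45 and 7.38 at 96 h, against 9.12, 9.24 and 9.34 in untreated cells (-1.82 ± 0.09, adjusted p = 1.13e-06), which is a larger fall than in Nup107. It changed by -0.64 at 48 h (adjusted p = 0.00578). Seh1l, a Y complex member, had 8.03 and 7.87 at 96 h, against 8.48, 8.56 and 8.70 in untreated cells (-0.63 ± 0.10, adjusted p = 0.00117). Nupl2, on the cytoplasmic face, rose, with 7.15 and 6.77 at 96 h, against 6.55, 6.50 and 6.43 in untreated cells (0.47 ± 0.10, adjusted p = 0.00952). Gle1, which activates the helicase that strips messenger RNA at the pore, was lower at 48 h, with 7.42 and 7.51 at 48 h, against 8.05, 7.99 and 8.39 in untreated cells (-0.68 ± 0.14, adjusted p = 0.0255), and at 96 h its -0.39 was not called (adjusted p = 0.0931).

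Of 16 other transport genes measured, 7 were lower (10.1% of all genes) and 2 higher (11.8%) at 96 h, and 2 were lower (3.17%) and 0 higher (2.65%) at 48 h. Cse1l, the exporter that returns importin alpha to the cytoplasm, had 10.01 and 10.12 at 96 h, against 10.67, 10.81 and 10.95 in untreated cells (-0.75 ± 0.09, adjusted p = 0.000296), and was already lower at 48 h (-0.69, adjusted p = 0.00335). Rcc1, the chromatin-bound exchange factor of Ran, had 6.31 and 5.59 at 96 h, against 7.16, 7.40 and 7.57 in untreated cells (-1.43 ± 0.20, adjusted p = 0.000634). Rangap1, which triggers GTP hydrolysis by Ran in the cytoplasm, had 8.42 and 8.37 at 96 h, against 9.08, 9.42 and 9.32 in untreated cells (-0.87 ± 0.11, adjusted p = 0.000386). Nxt1, a partner of the messenger RNA exporter Nxf1, had 6.42 and 6.36 at 96 h, against 7.55, 7.45 and 7.64 in untreated cells (-1.16 ± 0.14, adjusted p = 0.000266). Nxf1 itself was not called (0.08, 95% interval -0.10 to 0.27). Ran, Ranbp1 and Ranbp3 were the other 3 lower genes, with -0.48, -0.47 and -0.42. The 2 higher genes were Rangrf and Nxt2. Rangrf, a nucleotide release factor of Ran, had 9.00 and 9.00 at 96 h, against 8.43, 8.40 and 8.53 in untreated cells (0.55 ± 0.15, adjusted p = 0.0225). Nxt2, the paralog of Nxt1, had 8.18 and 8.51 at 96 h, against 7.96, 7.67 and 7.64 in untreated cells (0.59 ± 0.16, adjusted p = 0.0258).

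Of 12 genes of the nuclear lamina and inner envelope, 4 were lower (10.1% of all genes) and 1 was higher (11.8%) at 96 h, and 3 were lower (3.17%) and 1 higher (2.65%) at 48 h. Lmnb1, lamin B1, had 4.13 and 4.97 at 96 h, against 8.14, 8.27 and 8.55 in untreated cells (adjusted p = 1.77e-06). Its 96 h replicate 1 lay inside the background range, so the fitted -3.77 is limited by background and gives no exact size of the fall. Tmpo, Lbr and Lmnb2 changed by -1.84, -1.57 and -0.73 at 96 h, and Syne1, a linker of nucleus and cytoskeleton, by 1.32 ± 0.16 (adjusted p = 0.000301). Lmna, the lamin of differentiated cells, was not called (-0.31, adjusted p = 0.0721).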

How the data were processed

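Total RNA of 12 G1 fractions was measured on Affymetrix MoGene 1.0 ST arrays. The authors deposited 1 table of log2 values per transcript cluster; RMA (background correction, quantile normalisation, probe summary) and Partek are named per the submitters' processing notes, without versions. Those log2 values, as deposited, spanned 2.53 to 13.18, with array medians of 4.13 to 4.20. Quantile normalisation gives all arrays 1 distribution, so a shift of all transcripts would not show, and background left in the values shrinks folds of dim genes. The number of arrays limits the precision.

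Of 35399 clusters, 21789 had 1 symbol in the platform annotation, 1621 several and 11989 none. The Entrez identifier of 21698 was found in RefSeq's GRCm38.p6 table, and 0 symbols needed an update. The clusters with 1 symbol gave 19938 genes, tested with limma 3.58.1 in R 4.3.3 (lmFit with 1 mean per group over all 12 arrays, contrasts, eBayes). Errors are limma's SE. Scripts were tested on simulated data. Tables were made in Python 3.11.15 with pandas 2.3.3.

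The members and lists were chosen with earlier results of these data known. Any member could be named. Values array by array were given for the 2 members of each role with the smallest F-test p, members called higher, and Kpna2 with its called paralogs, and up to 4 genes were named first from each related list. The array values of Kpna6, Kpna7, Tnpo3 and Xpo4, and the values of markers and of other genes of these lists, were added after they were seen. Same-numbered arrays deviated together between 24 h DFMO and untreated (r = 0.153, 0.287 and 0.581). Some pairs of unlike numbers did so too (0.235 and 0.126), and the others deviated in opposite directions (-0.196, -0.373, -0.394 and -0.423). The alternatives tried are given with the results that depend on them.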

Additional observations from a re-analysis of the deposited data

Results flagged for a closer look

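A few genes gave a different log2 change from one DFMO time to the next, by limma's test of the step itself (adjusted p under 0.05 over all genes). From 24 h to 48 h, Nup107 stepped by -0.80 (adjusted p = 0.027), Nup205 by -0.58 (0.00351), Nup85 by -0.54 (0.0396) and Ipo9 by -0.40 (0.0483). From 48 h to 96 h, Nup54 stepped by -0.92 (adjusted p = 0.00719), Kpna2 by -0.78 (0.0397), Nup37 by -0.71 (0.025), Nup188 by -0.58 (0.02), Nup85 by -0.54 (0.0198) and Nup205 by -0.48 (0.00296).

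All of these steps were negative. The Nup205 steps kept their calls with each array left out in turn, and the others did not: between 2 and 10 of the 12 omissions ended each of them. Single outlying arrays were not looked for, since no group held 4 arrays.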

How the results depend on the processing

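At 96 h the number of pore genes called lower (14) stayed within 1.5 times in each setting tried, and so did that of receptor genes (12), except for 7 without 96 h replicate 1. At 48 h the pore count fell to 4 with only the 2 groups compared in the fit, and the receptor count to 1 with the 3 arrays that deviated together (untreated replicate 3, 12 h replicate 2, 24 h replicate 3) left out. The 1 receptor gene called higher at 96 h became 0 with all clusters tested together or a trended robust prior, and 2 with only genes of mean 6 or more, a second quantile normalisation, only the 2 groups compared or the replicate block. Between 24 h and 48 h, the pore count of 3 became 1 (all clusters, only the 2 groups) or 5 (mean of 6 or more, array weights), and the receptor count of 1 became 0 (all clusters, mean of 6 or more, centred arrays, second quantile normalisation, trended prior) or 2 (array weights). Between 48 h and 96 h, the pore count of 5 became 8 (centred arrays, second quantile normalisation, array weights, the 3 arrays left out), and the receptor count of 1 became 0 (mean of all clusters of a gene, all clusters), 2 (only the 2 groups, replicate block) or 3 (array weights, the 3 arrays left out). The receptor median at 48 h was -0.11 with centred or re-normalised arrays and -0.13 with array weights, against -0.16. Counts over all genes moved between settings as well. Between 24 h and 48 h, 228 genes were called lower, 46 with only the 2 groups and 338 with array weights. Between 48 h and 96 h, 855 were called lower, 886 with a second quantile normalisation, 1004 with centred arrays and 1085 with array weights. At 48 h against untreated cells, 632 were called lower, and 599 with only the 2 groups.

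With 1 array left out in turn, the counts of genes called lower ranged from 1 to 8 (pore) and 0 to 3 (receptor) at 48 h, from 11 to 16 and 7 to 12 at 96 h, from 1 to 4 and 0 to 1 between 24 h and 48 h, and from 1 to 7 and 0 to 3 between 48 h and 96 h. The receptor genes called higher at 96 h ranged from 0 to 2. The pore medians ranged from -0.29 to -0.20 at 48 h and -0.69 to -0.51 at 96 h, the receptor medians from -0.20 to -0.14 and -0.32 to -0.26. Of the 27 genes called at 96 h, 17 kept the call in all settings and omissions, and of the 10 at 48 h, 1 did. No change of a called gene turned its sign. Where an omission left 1 array in a group, that array was assumed to vary like the others. Centring the arrays turned the split of all genes at 48 h from 528 higher and 632 lower into 741 higher and 486 lower. The cause of these shifts was not tested.

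Replicate numbers were shared, but only 24 h and untreated had 3 pairs, where the replicate block also called 0 pore and 0 receptor genes. With the block, pairing numbers across all groups, the Nup85 and Ipo8 calls at 48 h were lost (-0.47 and -0.36), and Xpo4 (-0.40) and Nup210l (-0.27) were called lower there. At 96 h Kpna6 was called higher (0.40), and Nup62 (-0.41), Xpo4 (-0.36) and Nup210l (-0.21) lower. The early step of Nup85 lost its call (-0.52), and the late steps of Nup107 (-0.57) and Kpnb1 (-0.30) gained one.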
